A study of Mus musculus with 48 samples.

Results

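Cubn, Amn, Dab2, Lrp2 and Fcgrt, 5 of the 54532 genes in the table of estimated counts, were followed in mouse small intestine from birth to week 4. They were chosen by symbol because they encode the machinery with which the suckling gut takes up milk proteins and antibodies. Total RNA was sequenced from whole-thickness pieces of duodenum, next to the stomach outlet, and of ileum, next to the caecum. Tissue came from C57Bl/6J mice of both sexes at 8 ages (day 0, 2, 4, 6 and 8, then week 2, 3 and 4), and each region and age had 3 samples, numbered 1 to 3. The labels name no engineered allele and no agent for any group. The pups stayed with the dam for the first 3 weeks and then ate chow. The step from week 2 to week 3 is called weaning here as a name for that interval, not as a statement that the week 3 mice had moved to chow. Housing is called standard and germ-free in the labels, without a word on how that state was kept. Litters gave usually 2 to 3 ages, and whether a duodenum and an ileum sample with the same number came from one mouse is not stated. P-values therefore measure the spread between these samples.

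Milk supplies the pup with whole proteins, vitamins bound to carrier proteins, and maternal antibodies, and the enterocytes of the suckling rodent take many of them up by endocytosis. Cubn encodes cubilin, a giant receptor with no membrane anchor of its own. Amn encodes amnionless, the small membrane protein that holds cubilin at the cell surface and carries it through the cell. Dab2 encodes an adaptor that links the tails of such receptors to clathrin coats. Lrp2 encodes megalin, a large endocytic receptor that works beside cubilin in the kidney. Proteins taken up in this way are digested in lysosomes, most of all in the vacuolated enterocytes of the suckling ileum. Fcgrt encodes the heavy chain of the neonatal Fc receptor (FcRn), which binds IgG in acidic compartments, pairs with beta-2-microglobulin (B2m), and carries milk IgG across the epithelium of the suckling rodent.

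In GENCODE M21 on GRCm38 (mm10), Fcgrt lies at chr7:45092990-45103851 on the minus strand, Cubn at chr2:13276338-13491813 on the minus strand, Amn at chr12:111271095-111276426 on the plus strand, Dab2 at chr15:6299788-6440712 on the plus strand and Lrp2 at chr2:69424340-69586065 on the minus strand. Their longest coding transcripts measure 1770 bases for Fcgrt, 11262 for Cubn, 1701 for Amn, 4663 for Dab2 and 15460 for Lrp2. An exon of Gm13270 overlaps an exon of Cubn on the opposite strand, with 2061 counts over the 48 samples beside 1227241 for Cubn. Gm18888 overlaps Dab2 in the same way and had 0 counts. The 250 bases before the RefSeq start on GRCm38.p6 are shown for 2 genes that fell at weaning (Fcgrt and Dab2). They are also shown for the 2 partners whose change at weaning did not pass the test over the 46 samples (Cubn and Amn). Matches to the searched motifs are in capitals.
Fcgrt, chr7:45103823-45104072, minus strand: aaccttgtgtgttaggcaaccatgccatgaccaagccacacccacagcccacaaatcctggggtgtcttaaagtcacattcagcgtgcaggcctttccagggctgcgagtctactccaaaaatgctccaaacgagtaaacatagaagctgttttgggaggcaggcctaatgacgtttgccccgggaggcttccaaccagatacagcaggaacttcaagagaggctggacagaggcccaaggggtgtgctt
Dab2, chr15:6299539-6299788, plus strand: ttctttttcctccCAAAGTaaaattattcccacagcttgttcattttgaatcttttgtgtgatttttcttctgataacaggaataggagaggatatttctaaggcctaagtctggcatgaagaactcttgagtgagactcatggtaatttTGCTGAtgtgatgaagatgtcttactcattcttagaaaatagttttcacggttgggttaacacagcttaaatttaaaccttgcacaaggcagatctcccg
Cubn, chr2:13491877-13492126, minus strand: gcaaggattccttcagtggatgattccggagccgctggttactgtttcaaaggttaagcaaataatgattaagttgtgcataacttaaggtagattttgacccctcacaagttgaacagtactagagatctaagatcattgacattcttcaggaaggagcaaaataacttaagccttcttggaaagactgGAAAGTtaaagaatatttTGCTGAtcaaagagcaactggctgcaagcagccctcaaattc
Amn, chr12:111270846-111271095, plus strand: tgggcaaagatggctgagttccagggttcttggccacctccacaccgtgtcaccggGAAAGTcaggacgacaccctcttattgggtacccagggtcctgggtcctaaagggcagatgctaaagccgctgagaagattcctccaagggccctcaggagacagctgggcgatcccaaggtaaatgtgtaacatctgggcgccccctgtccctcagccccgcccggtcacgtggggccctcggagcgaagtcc
The motifs searched on both strands were AGATAA for GATA factors, TTTATG for CDX factors, CAAAGT for HNF4, TGCTGA for MAF factors and GAAAGT for PRDM1. Cubn held the MAF letters at 42 to 37 bases and the PRDM1 letters at 60 to 55 bases before the start, and Amn held the PRDM1 letters at 194 to 189 bases. Dab2 held the HNF4 letters at 237 to 232 bases and the MAF letters at 100 to 95 bases. No motif was found in the Fcgrt window. The Lrp2 window, at chr2:69586030-69586279, held the CDX letters at 67 to 62 bases and the HNF4 letters at 154 to 149 bases. The second RefSeq start of Dab2, at chr15:6386498-6386747, held none. Of 32851 promoter windows of the same length, 9.99% held the GATA letters, 10.8% the CDX letters, 12.6% the HNF4 letters, 16.1% the MAF letters and 12.3% the PRDM1 letters. The Cubn window and the first Dab2 window were poor in GC at 39.6% and 36.8%, beside a median of 52.4% over the 32851 windows. The second Dab2 window had 60%, the Fcgrt window 53.2%, the Amn window 61.2% and the Lrp2 window 66.4%. These matches are letters in a window and were not tested as binding sites.

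The 46 samples used held 16824021 to 65042327 estimated counts each, of which 13.1% to 35.2% fell on mitochondrial transcripts. The day 6 samples numbered 3 were left out because each looked like the other region. The library labelled duodenum had 0.115 CPM (the count scaled to library size) of Pdx1, a factor of the duodenum, and the library labelled ileum had 14.6. Fabp6, which is outside the 5 genes, had 1.98 CPM in the former and 0 in the latter. Lrp2 read 71.5 and 0.597 CPM in the same order. These levels of the left-out libraries use the scaling of all 48 samples, unlike the CPM of the 46 samples fitted. Because Lrp2 is itself compared between the regions, its level cannot serve as independent evidence for leaving these libraries out. Enterocyte markers dominated the marker lists, with the summed level of 10 genes between 12465 CPM and 72746 CPM in a sample. The summed level of 6 smooth muscle markers was 4.68 to 194 CPM and that of 7 fibroblast markers 5.44 to 426 CPM, which is low beside the whole-thickness label. Of 54532 genes, 21986 passed the filter on low counts, all 5 genes among them, and a change was called where edgeR's adjusted p was under 0.05.

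Fcgrt, the FcRn heavy chain, was abundant in both regions from birth to week 2 and collapsed at weaning. In the duodenum its level was 2426, 1739 and 1867 CPM at day 0, then 3383, 3169 and 3250 CPM at day 2, then 1689, 1518 and 1651 CPM at day 8. At week 2 it was 5096, 2618 and 3009 CPM, at week 3 156, 92.0 and 92.2 CPM, and at week 4 99.1, 144 and 127 CPM. The lowest week 2 sample was far above the highest week 3 sample, and the week 3 and week 4 samples overlapped. The fall at weaning was 31.5-fold in the duodenum (log2 fold change −4.98 ± 0.33 SE, adjusted p = 2.75e-14). In the ileum the level was 1063, 1092 and 1375 CPM at day 0, then 2096, 1162 and 1641 CPM at week 2, then 74.9, 56.1 and 50.4 CPM at week 3, then 65.3, 80.4 and 37.5 CPM at week 4. The ileal fall was 27.0-fold (−4.75 ± 0.33, adjusted p = 3.58e-14), and the falls of the 2 regions differed by 0.22 ± 0.40 on the log2 scale (adjusted p = 0.969). In bulk tissue, fewer cells of a type and less RNA per cell cannot be told apart.

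Between these ages duodenal Fcgrt was 2192, 1024 and 1594 CPM at day 4 and 767 and 1292 CPM at day 6, all under the day 2 samples. Week 2 stood 2.21-fold above day 8 in the duodenum (1.14 ± 0.28, adjusted p = 0.00590), a call that rested on sample 1 of week 2: without it the value was 0.80 with an adjusted p of 0.109. The ileal value for the same step was 0.74 ± 0.28 (adjusted p = 0.110). Neither day 2 nor day 8 differed from day 0 at the threshold in either region. Week 4 differed from week 3 by 0.12 ± 0.28 in the duodenum (adjusted p = 0.828) and by 0.02 ± 0.28 in the ileum (adjusted p = 0.986).

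B2m, the light chain of FcRn and of MHC class I molecules, did not share the collapse. Its duodenal level was 1615, 1104 and 1222 CPM at week 2, then 679, 906 and 632 CPM at week 3, a fall of 0.83 ± 0.21 on the log2 scale (adjusted p = 0.00301). In the ileum it was 553, 475 and 537 CPM and then 352, 477 and 359 CPM (−0.40 ± 0.21, adjusted p = 0.157). From day 0 to week 4 B2m rose by 1.43 ± 0.21 in the duodenum (adjusted p = 5.78e-07) and by 1.87 ± 0.21 in the ileum (adjusted p = 2.49e-09). Per kilobase of longest coding transcript, the Fcgrt level in the duodenum was 1.15 to 1.53 times that of B2m in the 3 week 2 samples and 0.0494 to 0.111 times in the 3 week 3 samples. In the ileum this ratio was 1.19 to 1.84 at week 2 and 0.0572 to 0.103 at week 3. Of 8 other Fc receptor genes tested, 1 fell at weaning in each region, where 10.6% and 13.9% of all tested genes were lower in duodenum and ileum. That gene was Trim21, a cytosolic IgG receptor (−0.89 ± 0.20 in the duodenum, adjusted p = 0.000802, and −0.68 ± 0.20 in the ileum, adjusted p = 0.00793). The list's median log2 fold change was 0.15 in the duodenum and −0.51 in the ileum, beside 0.03 over all genes tested in each region. Pigr, which encodes the receptor that carries IgA and IgM outward into the lumen, rose at weaning by 1.31 ± 0.34 in the duodenum (adjusted p = 0.00498) and by 0.92 ± 0.34 in the ileum (adjusted p = 0.0398).

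**Figure D1:**
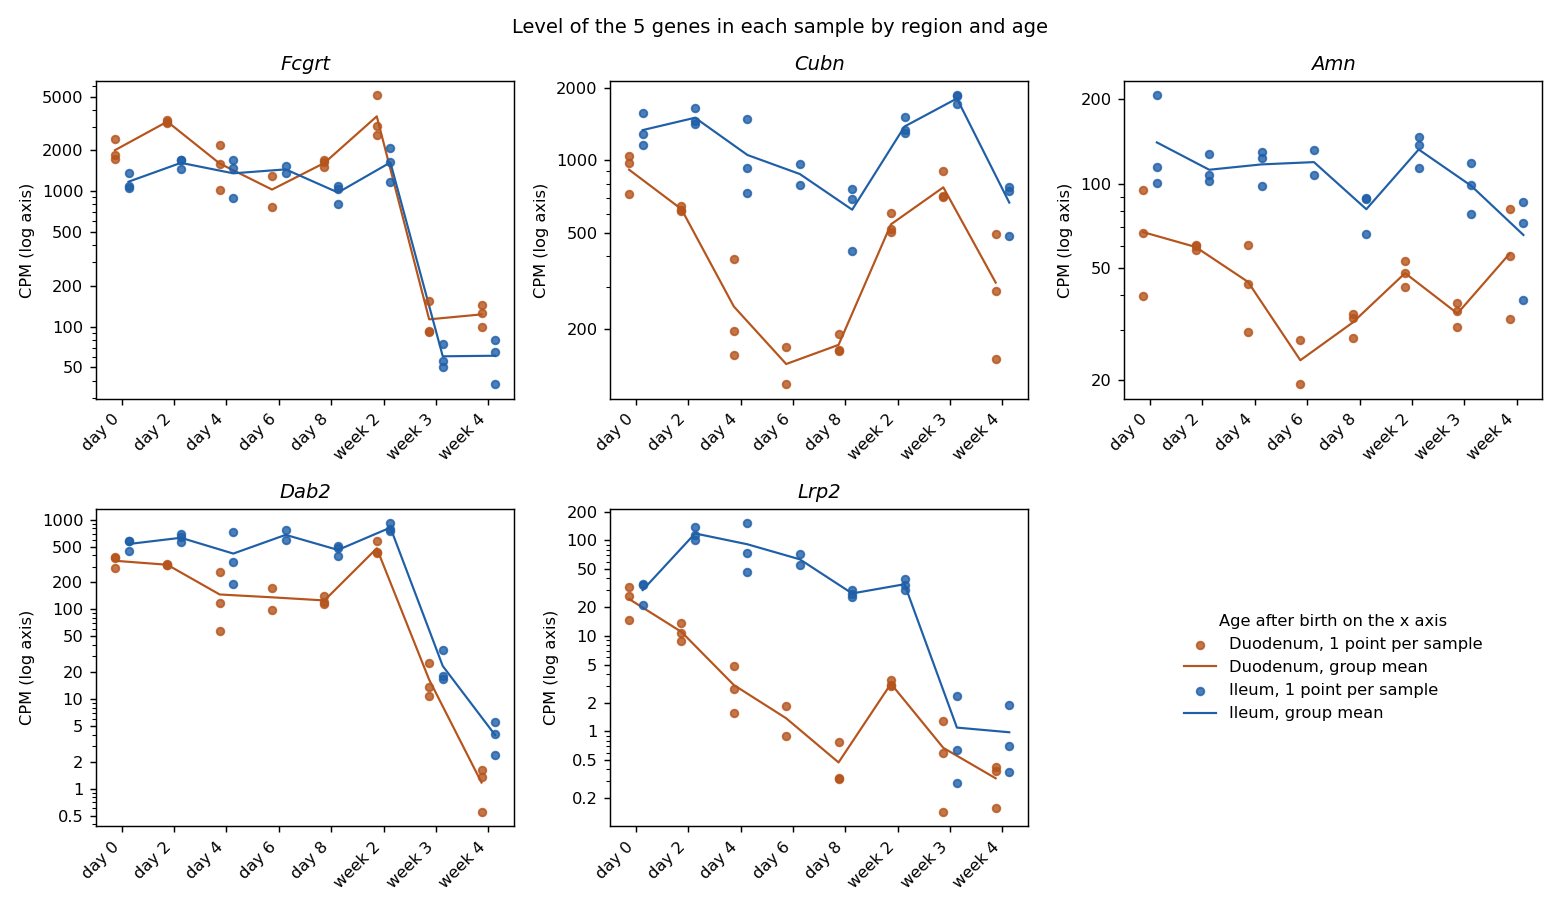
Level of the 5 genes in each sample (CPM, log axis) by age, in duodenum and ileum; points are samples and lines join group means. Fcgrt and Dab2 drop between week 2 and week 3 in both regions, while the Cubn samples at week 3 lie at 706 CPM or above in the duodenum and at 1712 CPM or above in the ileum.

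Cubn, the cubilin receptor, fell in the first week of life, rose again by week 2, was high at week 3 and fell afterwards. In the duodenum the week 2 samples stayed under those of day 0. The duodenal level was 1040, 977 and 726 CPM at day 0, 191, 163 and 162 CPM at day 8, 604, 504 and 520 CPM at week 2, then 900, 711 and 706 CPM at week 3. The 3 oldest samples had 151, 496 and 287 CPM, with no overlap with week 3. The fall from day 0 to day 8 was 5.32-fold (−2.41 ± 0.31, adjusted p = 5.82e-08), and the rise to week 2 was 3.16-fold (1.66 ± 0.30, adjusted p = 0.000449). At weaning the difference was 0.51 ± 0.29 (adjusted p = 0.249), and from week 3 to week 4 Cubn fell 2.48-fold (−1.31 ± 0.30, adjusted p = 0.00195). The weaning rise passed in 1 of 14 alternative fits, edgeR with only the 2 groups compared (adjusted p = 0.0259). That fit called 5063 of 17140 genes.

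The ileum showed these falls and the rise as well, at a higher level. Its samples read 1569, 1280 and 1152 CPM at day 0, 422, 758 and 693 CPM at day 8, 1292, 1332 and 1516 CPM at week 2, 1712, 1842 and 1855 CPM at week 3, then 772, 748 and 484 CPM at week 4. Ileal Cubn fell 2.14-fold to day 8 (−1.10 ± 0.29, adjusted p = 0.00651) and rose 2.21-fold to week 2 (1.14 ± 0.29, adjusted p = 0.0159). Both calls rested on the low day 8 sample 1: without it the values were −0.88 (adjusted p = 0.0734) and 0.93 (adjusted p = 0.197). The rise was also lost without week 2 sample 3 (1.07, adjusted p = 0.0673). The weaning difference was 0.39 ± 0.29 (adjusted p = 0.355), and the fall from week 3 to week 4 was 2.70-fold (−1.43 ± 0.30, adjusted p = 0.000519). The ileal weaning difference passed the threshold in 1 of 14 alternative fits. The fall to day 8 was 1.32 ± 0.41 smaller on the log2 scale in the ileum than in the duodenum (adjusted p = 0.0381), but this difference passed the threshold in 2 of 12 fits that each left out 1 sample.

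Amn, the membrane partner of cubilin, fell in the duodenum in the first week and in the ileum from birth to week 4. In the duodenum it was 95.1, 66.9 and 39.7 CPM at day 0, 34.4, 28.3 and 33.3 CPM at day 8, 53.2, 48.03 and 42.9 CPM at week 2, 37.5, 35.1 and 30.8 CPM at week 3, then 32.9, 81.1 and 55.5 CPM at week 4. The spread at day 0 and at week 4 was wide. The fall to day 8 was 2.10-fold (−1.07 ± 0.29, adjusted p = 0.00306), and without day 0 sample 1 it was −0.73 with an adjusted p of 0.0582. In the ileum Amn was 206, 100 and 115 CPM at day 0, 66.5, 88.8 and 88.3 CPM at day 8, 114, 137 and 146 CPM at week 2, 78.0, 118 and 98.9 CPM at week 3, then 86.1, 72.5 and 38.4 CPM at week 4. The ileal fall from day 0 to week 4 was 2.14-fold (−1.10 ± 0.29, adjusted p = 0.00249), and it too rested on day 0 sample 1 (−0.71 without it, adjusted p = 0.0611). At weaning the Amn difference was −0.48 ± 0.29 in the duodenum (adjusted p = 0.283) and −0.43 ± 0.29 in the ileum (adjusted p = 0.292). With only the 2 groups compared, the duodenal fall of Amn passed by edgeR (adjusted p = 0.0174).

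Across the 16 groups of region and age, the group means of log2 CPM of Cubn and Amn had a Pearson r of 0.841. The groups share scaling and tissue, so this is a description. Per kilobase, the ratio of Cubn to Amn in single samples ran from 0.388 in the duodenum at day 4 to 3.63 in the duodenum at week 3. In the duodenum it was 0.733 to 0.872 at day 8, 1.59 to 1.83 at week 2, 3.06 to 3.63 at week 3 and 0.693 to 0.924 at week 4. The week 3 samples held the most Cubn for their Amn, and in the ileum as well the 3 week 3 samples, at 2.35 to 3.32, lay above every other ileal sample.

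Dab2, the clathrin adaptor, fell steeply at weaning and fell again by week 4 in both regions. The duodenal samples held 386, 371 and 287 CPM at day 0, 115, 122 and 140 CPM at day 8, then 578, 434 and 425 CPM at week 2. They then held 25.1, 10.7 and 13.4 CPM at week 3, then 0.548, 1.61 and 1.34 CPM at week 4. No sample of one of these last 3 ages overlapped with the next. Duodenal Dab2 fell 2.77-fold to day 8 (−1.47 ± 0.40, adjusted p = 0.00333), rose 3.81-fold to week 2 (1.93 ± 0.41, adjusted p = 0.00210), fell 29.1-fold at weaning (−4.86 ± 0.47, adjusted p = 4.15e-10) and fell a further 14.2-fold by week 4 (−3.83 ± 0.48, adjusted p = 3.86e-07).

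Ileal Dab2 stood at 577, 449 and 580 CPM at day 0, an uneven 725, 192 and 340 CPM at day 4, 396, 505 and 479 CPM at day 8, then 915, 796 and 740 CPM at week 2. It then dropped to 35.2, 18.2 and 16.5 CPM at week 3, then 4.02, 2.36 and 5.48 CPM at week 4. The difference from day 0 to day 8 was −0.22 ± 0.39 (adjusted p = 0.752), which differed from the duodenal change by 1.25 ± 0.56 (adjusted p = 0.1399). The fall at weaning was 35.0-fold (−5.13 ± 0.47, adjusted p = 9.81e-11) and the fall from week 3 to week 4 was 6.06-fold (−2.60 ± 0.45, adjusted p = 5.44e-05). Over the whole span from day 0 to week 4, Dab2 fell 300.1-fold in the duodenum and 139-fold in the ileum (adjusted p = 2.54e-14 and 1.83e-13). The week 4 samples rest on 21, 58 and 38 counts in the duodenum and 69, 76 and 82 in the ileum.

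At week 3 the levels of the receptor and its adaptor were far apart. Per kilobase, Dab2 was 1.98 to 2.31 times Cubn in the duodenum at week 2 and 0.0364 to 0.0674 times at week 3. In the ileum the ratio was 1.18 to 1.71 at week 2 and 0.0215 to 0.0497 at week 3. At week 4 it was 0.00785 to 0.0113 in the duodenum and 0.00762 to 0.0274 in the ileum. No week 3 sample came near a week 2 sample in either region. The r between the 16 group means of Cubn and Dab2 was 0.280, that of Dab2 and Fcgrt 0.863, and that of Cubn and Fcgrt −0.101.

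**Figure D2:**
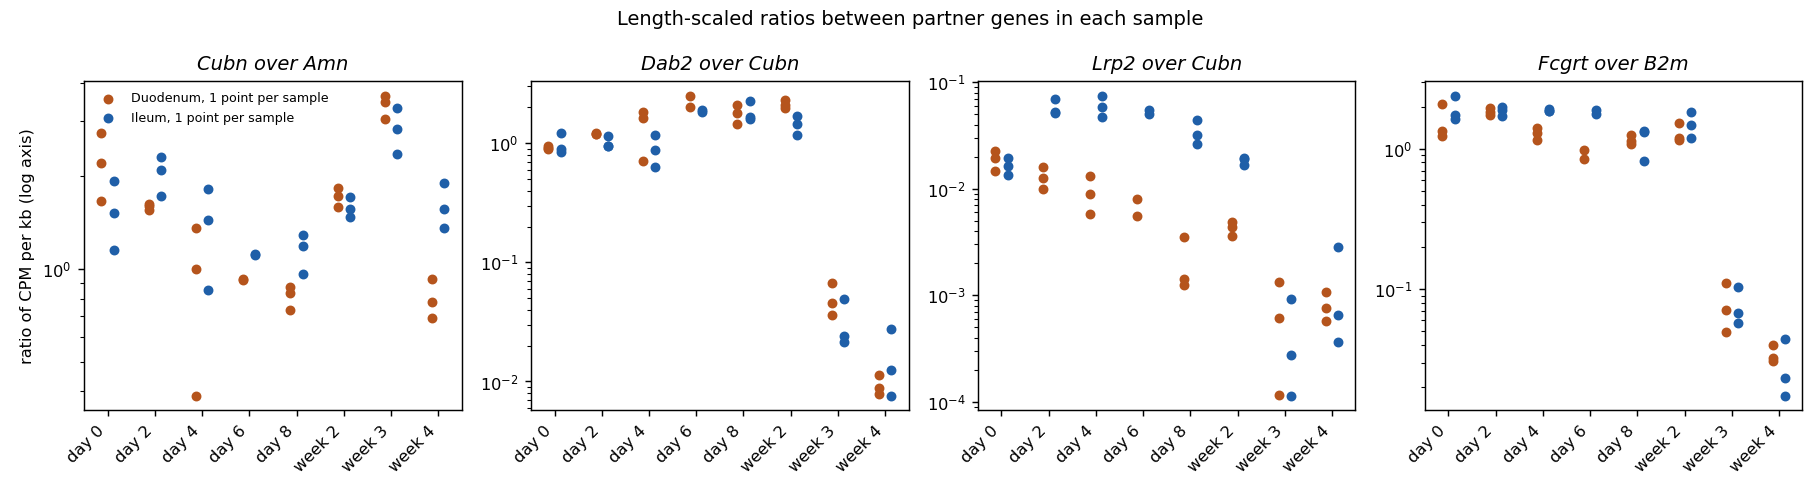
Ratios of length-scaled levels (CPM per kilobase of the longest coding transcript, log axes) in each sample for Cubn over Amn, Dab2 over Cubn, Lrp2 over Cubn and Fcgrt over B2m. The week 3 and week 4 samples of Dab2 over Cubn and Fcgrt over B2m lie apart from all younger samples in both regions.

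Lrp2, the megalin receptor, had the lowest level of the 5 per kilobase in each group and was the one with the largest regional difference. In the duodenum it declined from birth: 32.2, 26.1 and 14.8 CPM at day 0, 8.77, 13.6 and 10.7 CPM at day 2, 4.81, 1.58 and 2.80 CPM at day 4, 0.904 and 1.84 CPM at day 6, then 0.330, 0.316 and 0.776 CPM at day 8. The day 8 samples rest on 15, 15 and 34 counts. The fall from day 0 to day 8 was 51.3-fold (−5.68 ± 0.61, adjusted p = 5.45e-09). At week 2 the level was 2.97, 3.04 and 3.46 CPM, 6.69-fold above day 8 (2.74 ± 0.59, adjusted p = 0.00257), and at week 3 it was 0.143, 0.593 and 1.28 CPM, from 8, 17 and 50 counts. The fall at weaning was 4.89-fold (−2.29 ± 0.58, adjusted p = 0.00425). With the 2 left-out libraries kept under their labels, the adjusted p was 0.123 for the rise and 0.185 for this fall.

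In the ileum Lrp2 went up at first. It was 35.4, 34.1 and 21.1 CPM at day 0, then 101, 139 and 115 CPM at day 2, a 3.92-fold rise (1.97 ± 0.47, adjusted p = 0.00982) in samples that did not overlap. The rise had an adjusted p of 0.0864 without day 0 sample 3 and of 0.296 with the left-out libraries kept. The later ileal levels were 151, 47.2 and 74.5 CPM at day 4, 54.8 and 72.0 CPM at day 6, 25.8, 27.2 and 30.5 CPM at day 8, then 34.1, 30.6 and 39.7 CPM at week 2. At weaning they fell to 0.640, 0.290 and 2.36 CPM, which is 32.0-fold (−5.0 ± 0.59, adjusted p = 3.27e-08), and at week 4 they were 0.699, 0.372 and 1.87 CPM. The ileal week 3 samples rest on 16, 6 and 49 counts. The ileal day 8 samples overlapped with day 0 (−0.11 ± 0.46, adjusted p = 0.901). The change from day 0 to day 8 differed between the regions by 5.57 ± 0.75 on the log2 scale (adjusted p = 2.60e-05). The falls at weaning, −2.29 in the duodenum and −5.0 in the ileum, differed by −2.71 ± 0.83 (adjusted p = 0.106). Both ended at few counts, so the week 2 level limits how large each fall could be. That level was 2.97 to 3.46 CPM in the duodenum and 30.6 to 39.7 CPM in the ileum.

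Per kilobase, Lrp2 stayed far under Cubn. The ratio of Lrp2 to Cubn was 0.0148 to 0.0226 in the duodenum and 0.0134 to 0.0194 in the ileum at day 0. By day 8 it was 0.00126 to 0.00350 in the duodenum and 0.0261 to 0.0446 in the ileum, with no overlap. Over all 16 groups the order of mean levels per kilobase put Lrp2 last. Fcgrt came first in both regions up to week 2, for example 2019 CPM per kilobase in the duodenum at week 2 beside 103 for Dab2, 48.2 for Cubn, 28.2 for Amn and 0.204 for Lrp2. In the ileum at week 2 these means were 923 for Fcgrt, 175 for Dab2, 122.5 for Cubn, 77.9 for Amn and 2.25 for Lrp2. At week 3 Cubn came first, with 68.6 beside 64.1 for Fcgrt in the duodenum, where samples of the 2 genes crossed (Fcgrt was 0.823 to 1.10 times Cubn), and 160.1 beside 57.9 for Amn and 34.2 for Fcgrt in the ileum.

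Counted over the 5 genes, the day 2 step had 0 called by edgeR and by DESeq2 in the duodenum, with 2 at an unadjusted p under 0.05 (6.80% of all tested genes were called) and 1, Lrp2, higher in the ileum (5.20%, and 2.59% higher). Day 8 against day 0 had 4 lower in the duodenum, with Fcgrt not called, where 41.2% of genes were called in either direction and 19.2% lower. In the ileum 1, Cubn, was lower (19.3% either way, 10.7% lower). Week 2 against day 8 had 4 higher in the duodenum, with Amn not called (15.7% either way, 6.75% higher), and 1, Cubn, higher in the ileum (6.64% either way, 4.17% higher). At weaning Fcgrt, Dab2 and Lrp2 were lower in each region, 3 of 5, where 18.3% of genes were called and 10.6% were lower in the duodenum and 26.8% and 13.9% in the ileum. Week 4 against week 3 had Cubn and Dab2 lower in each region, 2 of 5 (12.7% called and 4.96% lower in the duodenum, 16.1% and 7.81% in the ileum). Week 4 against day 0 had 4 lower in the duodenum, with Amn not called, and all 5 lower in the ileum (40.5% called and 20.1% lower, and 41.9% and 20.4%). The effect of age over all ages was called for each of the 5 in both regions (67.4% of all tested genes for the duodenum, 58.7% for the ileum).

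**Figure D3:**
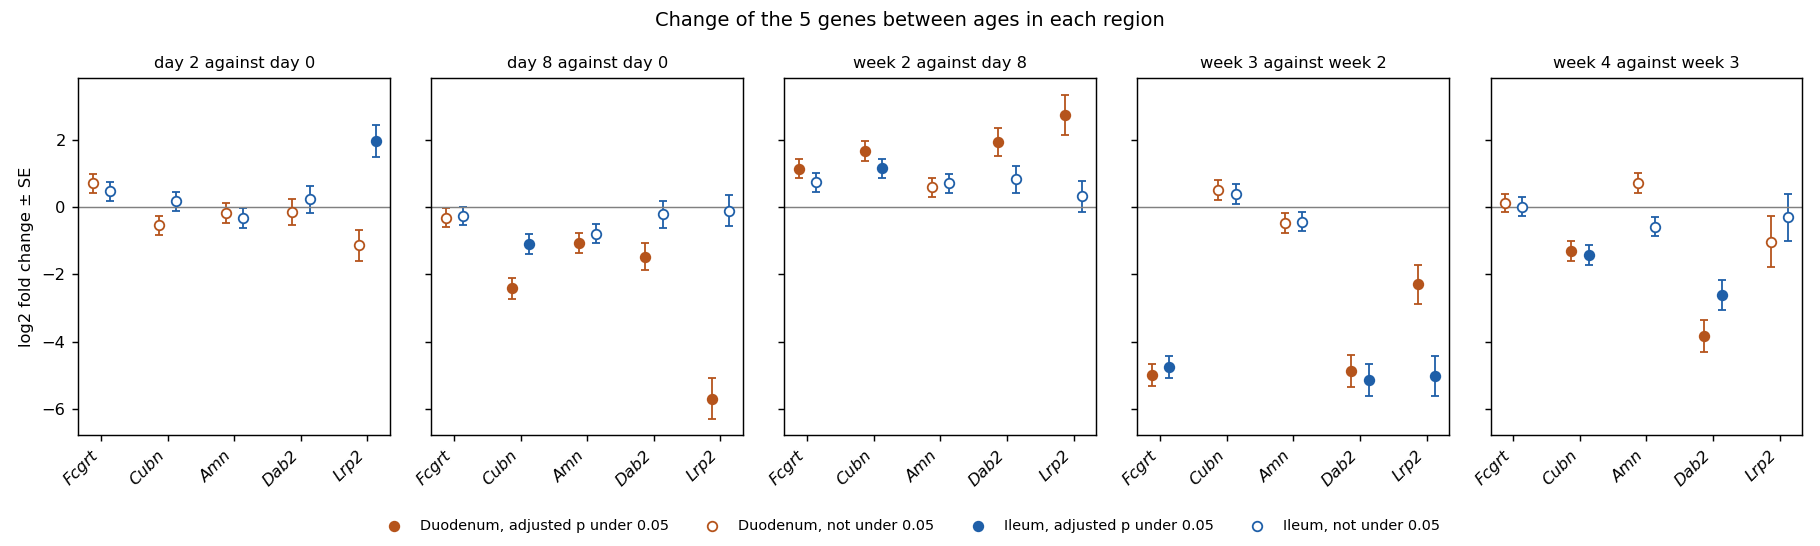
Log2 fold change ± SE of each gene for 5 comparisons between ages, in duodenum and ileum; filled symbols had an edgeR adjusted p under 0.05. At week 3 against week 2, Fcgrt and Dab2 lie between −4.75 and −5.13 in both regions, while Cubn and Amn lie between −0.48 and 0.51 with open symbols.

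Other cell types changed with some of these steps. From day 0 to day 8 in the duodenum, 10 of 10 macrophage markers, 8 of 8 blood endothelium markers, 4 of 5 lymphatic endothelium markers, 4 of 7 fibroblast markers and 6 of 10 enterocyte markers were lower. Over all tested genes, 19.2% were lower at this step. The summed smooth muscle level went from 17.5 to 21.6 CPM at day 0 to 4.68 to 7.37 CPM at day 8. The summed blood endothelium level went from 118 to 221 CPM at day 0 to 14.5 to 19.8 CPM at day 8, and the summed enterocyte level from 35922 to 43957 CPM to 23155 to 26893 CPM. In the ileum over the same days 3 of 8 blood endothelium and 1 of 10 enterocyte markers were lower, where 10.7% of all tested genes were. The summed macrophage level there was 102 to 123.4 CPM at day 0 and 127 to 149 CPM at day 8. The part of these cells in the falls of Cubn, Amn, Dab2 and Lrp2 was not tested. At weaning the summed blood endothelium level in the duodenum was 29.4 to 39.98 CPM at week 2 and 34.7 to 39.8 CPM at week 3. Of 10 macrophage markers 1 rose and 1 fell in the duodenum and 1 rose and 2 fell in the ileum, and the groups' sums did not overlap: in the duodenum the summed level was 122 to 167 CPM at week 2, against 54.5 to 79.6 CPM at week 3. In the ileum it was 146 to 180 CPM at week 2, against 51.0 to 58.3 CPM at week 3. Of 10 enterocyte markers 3 rose and 1 fell in each region at weaning. The part of macrophages in the weaning falls of Dab2 and the other genes was not tested.

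Between the regions, the uptake genes were higher in the ileum and Fcgrt was higher in the duodenum on average, though not at day 6. Averaged over ages, the log2 difference of ileum over duodenum was 1.504 ± 0.11 for Cubn (2.84-fold, adjusted p = 2.21e-14), 1.28 ± 0.11 for Amn (2.43-fold, adjusted p = 1.18e-12), 1.29 ± 0.15 for Dab2 (2.45-fold, adjusted p = 4.27e-09), 3.21 ± 0.21 for Lrp2 (9.26-fold, adjusted p = 1.98e-14) and −0.66 ± 0.10 for Fcgrt (1.58-fold lower, adjusted p = 7.71e-07). All 5 were called, where 62.1% of all tested genes were called, 31.9% higher and 30.2% lower.

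Amn was the 1 gene called at day 0 (1.06 ± 0.29, adjusted p = 0.0217; 6.10% of genes called), and it was lost without ileum sample 1 (0.68, adjusted p = 0.278) and without duodenum sample 2 or 3. The other day 0 values were 0.54 ± 0.29 for Cubn, 0.62 ± 0.40 for Dab2, 0.31 ± 0.46 for Lrp2 and −0.77 ± 0.28 for Fcgrt (adjusted p = 0.103). At day 2, 4 genes were called (8.01%), with Cubn at 1.26 ± 0.30, Lrp2 at 3.42 ± 0.50, Fcgrt at −1.01 ± 0.28 and Amn at 0.91 ± 0.29, the last lost in 6 of 6 fits that left out 1 sample and Fcgrt in 3 of 6. At day 4 the 4 uptake genes were called (26.6%), and Dab2, whose samples overlapped, was lost without ileum sample 1 (0.86, adjusted p = 0.141). Fcgrt was −0.24 at day 4 and was not called.

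At day 6, from 2 samples a region, the difference was 2.61 ± 0.38 for Cubn, 2.35 ± 0.37 for Amn, 2.31 ± 0.51 for Dab2 and 5.52 ± 0.70 for Lrp2, 4 genes called where 35.3% were. Fcgrt was not called at day 6, and its value was higher in the ileum (1375 and 1527 CPM) than in the duodenum (767 and 1292 CPM). With the left-out libraries kept under their labels no gene passed at that age, and Lrp2 had a difference of 0.78 (adjusted p = 0.811). At day 8 all 5 were called (39.6%), with Lrp2 58.7-fold higher in the ileum (5.88 ± 0.61, adjusted p = 2.23e-08), Cubn 3.63-fold (1.86 ± 0.30, adjusted p = 1.74e-05), Dab2 3.66-fold (1.87 ± 0.41, adjusted p = 0.000547) and Amn 2.54-fold (1.34 ± 0.29, adjusted p = 0.000531). Fcgrt was 1.65-fold lower (−0.73 ± 0.28, adjusted p = 0.0385), a call lost in 6 of 6 fits that left out 1 sample.

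At week 2, 4 genes were called (22.4%), with Cubn at 1.35 ± 0.30, Amn at 1.46 ± 0.29, Lrp2 at 3.45 ± 0.52 and Fcgrt at −1.13 ± 0.28, the last at −0.79 (adjusted p = 0.0567) without duodenum sample 1. At week 3, 3 were called (14.2%), Cubn at 1.22 ± 0.30, Amn at 1.51 ± 0.29 and Fcgrt at −0.91 ± 0.28, which was lost without duodenum sample 1 (−0.60, adjusted p = 0.216) or ileum sample 2 or 3. At week 4, 3 were called (28.4%), Cubn at 1.10 ± 0.29, Dab2 at 1.73 ± 0.49 and Fcgrt at −1.01 ± 0.29. Without duodenum sample 1 the week 4 calls of Cubn (0.74, adjusted p = 0.0699) and Dab2 (1.35, adjusted p = 0.0704) were lost. Without ileum sample 3 those of Dab2 (1.39, adjusted p = 0.0776) and Fcgrt (−0.80, adjusted p = 0.0676) were lost.

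The profile over ages differed between the regions for 3 of the 5 genes by the interaction test, Lrp2 (adjusted p = 5.47e-06), Cubn (adjusted p = 0.0150) and Amn (adjusted p = 0.0282), where 22.4% of genes were called. The adjusted p was 0.122 for Dab2 and 0.0683 for Fcgrt. With the left-out libraries kept none of the 5 passed, while 947 of 20901 genes tested did, and for Lrp2 the adjusted p was then 0.0564. Without duodenum day 6 sample 1 the adjusted p was 0.0503 for Cubn and 0.0881 for Amn, and without ileum day 6 sample 2 it was 0.0817 for Amn. The weaning step itself differed between regions for 0 of the 5 genes by edgeR (1.38% of genes called), with 1, Lrp2, at an unadjusted p under 0.05. By DESeq2 the Lrp2 difference passed (adjusted p = 0.0467), and by edgeR it passed without duodenum week 3 sample 1 (−3.28, adjusted p = 0.0324) or ileum week 3 sample 3 (−3.88, adjusted p = 0.0223). The change from day 0 to day 8 differed between regions for 2 of the 5, Cubn and Lrp2, where 10.1% of genes were called. At day 8 the ileum also had more marker RNA of other cells, with 6 of 10 macrophage, 7 of 8 blood endothelium, 7 of 7 fibroblast and 6 of 6 smooth muscle markers higher than in the duodenum. Over all tested genes, 39.6% were called in either direction at that age. The part of these cells in the regional differences was not tested.

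**Figure D4:**
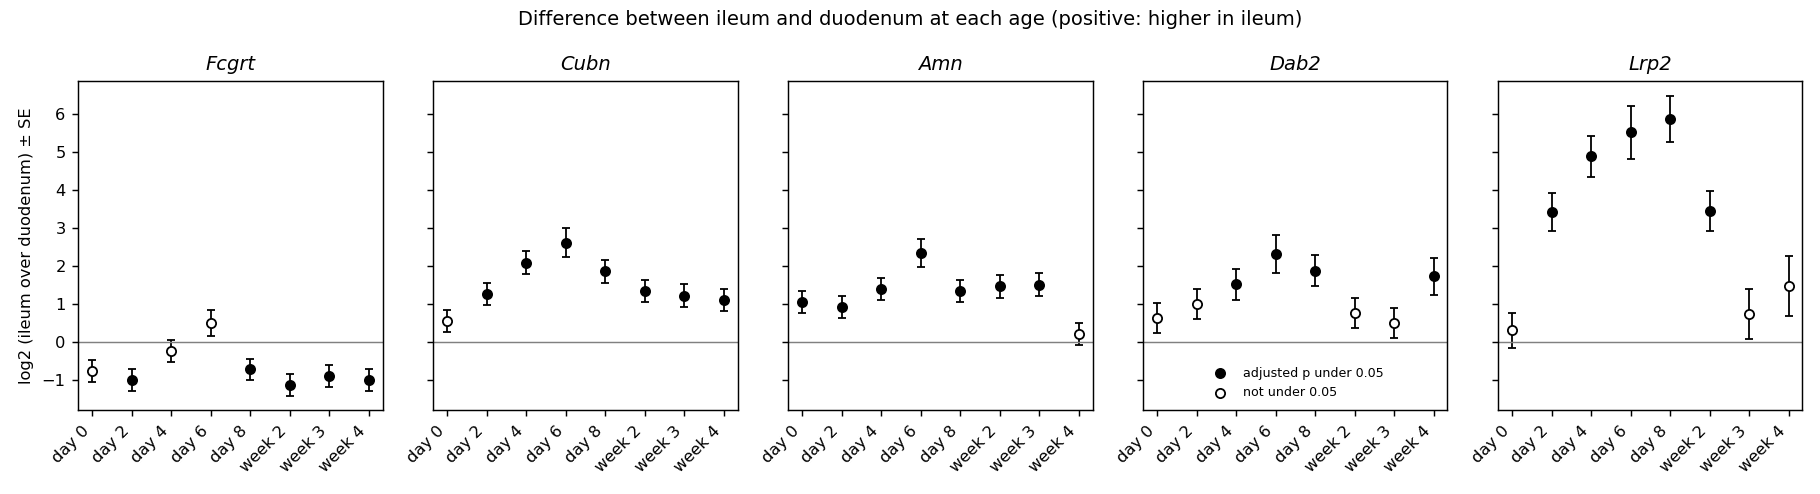
Difference between ileum and duodenum at each age (log2 ± SE, positive where the ileum is higher) for each gene; filled symbols had an edgeR adjusted p under 0.05. Lrp2 rises from 0.31 at day 0 to 5.88 at day 8 and is back at 0.74 by week 3, while Fcgrt lies under 0 at 7 of 8 ages.

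The genes around the receptors did not move as a block at weaning. Among 11 tested receptor partners and ligand carriers, 2 rose and 2 fell in the duodenum, and 2 rose and 2 fell in the ileum. Over all tested genes, 18.3% were called at this step in the duodenum (10.6% lower) and 26.8% in the ileum (13.9% lower). Folr1, a folate receptor, fell by more in value than each of the 5, a difference that was not tested: it was 275, 254 and 230 CPM in the duodenum at week 2 and 4.69, 0.837 and 1.23 CPM at week 3 (−6.75 ± 0.54, adjusted p = 7.34e-12). In the ileum Folr1 was 709, 757 and 861 CPM and then 31.1, 8.93 and 6.85 CPM (−5.63 ± 0.51, adjusted p = 6.69e-11). Lrpap1, a chaperone of megalin, was 25.0, 18.4 and 21.5 CPM at week 2, then 19.3, 14.02 and 16.8 CPM at week 3 in the duodenum (−0.37 ± 0.19, adjusted p = 0.192). In the ileum Lrpap1 was 29.0, 32.5 and 36.1 CPM and then 11.8, 9.80 and 8.63 CPM (−1.69 ± 0.20, adjusted p = 1.04e-08), and its 2 changes differed by −1.32 ± 0.27 (adjusted p = 0.00562). Vldlr, a lipoprotein receptor, rose in the duodenum (1.07 ± 0.30, adjusted p = 0.00896), and the values of B2m and Pigr are given above. Cblif, the gastric intrinsic factor whose complex with cobalamin cubilin binds, was at or under 0.833 CPM in every sample and did not pass the filter on low counts.

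Of 18 coat and adaptor genes, 2 rose and 2 fell in the duodenum and 5 rose in the ileum at weaning, where 18.3% and 26.8% of all tested genes were called. Pacsin2, a membrane-bending protein, rose by 0.77 ± 0.17 in the duodenum (adjusted p = 0.000589) and 1.29 ± 0.17 in the ileum (adjusted p = 9.29e-08). Myo6, the motor that moves coated vesicles inward and that Dab2 binds, fell in the duodenum (−0.76 ± 0.14, adjusted p = 0.000109), as did Fcho2, an early coat protein (−0.65 ± 0.23, adjusted p = 0.0395). Ap2m1, a subunit of the AP2 clathrin adaptor, rose by 0.50 ± 0.15 in the duodenum and 0.62 ± 0.15 in the ileum (adjusted p = 0.0161 and 0.00165), and Picalm rose in the ileum (0.73 ± 0.20, adjusted p = 0.00548), with Cltc (0.50) and Itsn1 (0.57). The list's median was 0.08 in the duodenum and 0.17 in the ileum, beside 0.03 over all genes in each. Dab2, which such coats recruit, was −4.86 and −5.13 on the same scale.

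Of 19 tested endosome sorting and acidification genes, 1 rose and 3 fell in the duodenum and 2 rose and 6 fell in the ileum, beside 18.3% and 26.8% of all tested genes called. Clcn5, the endosomal chloride exchanger needed for acidification in the kidney tubule, was 283, 276 and 284 CPM at week 2, then 115, 73.0 and 79.5 CPM at week 3 in the duodenum (−1.65 ± 0.26, adjusted p = 5.92e-06), and fell by 1.82 ± 0.26 in the ileum (adjusted p = 7.48e-07). Rab11a, of recycling endosomes, fell in both regions (−0.91 ± 0.18 in the duodenum and −0.74 ± 0.18 in the ileum, adjusted p = 0.000267 and 0.00176). Atp6v1a, a subunit of the proton pump, also fell (−0.73 ± 0.17 and −1.29 ± 0.17, adjusted p = 0.00170 and 1.88e-07), and Rab32 fell in the ileum by 0.97 ± 0.21 (adjusted p = 0.000509). Stx12 rose in both regions (0.64 and 0.61) and Rilp in the ileum (0.92). The medians were −0.15 and −0.04.

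Of 13 lysosomal protease genes, a list that includes the membrane proteins Lamp1 and Lamp2, 11 fell and 1 rose in the duodenum and 12 fell and 1 rose in the ileum, with medians of −1.17 and −1.83. Over all tested genes, 10.6% and 13.9% were lower. Ctsl, cathepsin L, was 2058, 1803 and 1724 CPM at week 2, then 85.3, 56.2 and 54.7 CPM at week 3 in the duodenum (−4.83 ± 0.42, adjusted p = 2.98e-11), and fell by 6.02 ± 0.45 in the ileum (adjusted p = 3.27e-13). Lgmn, an asparaginyl endopeptidase, fell in both regions (log2 fold changes −3.46 ± 0.49 and −4.35 ± 0.51, adjusted p = 1.16e-06 and 1.81e-08). Dpp7 fell as well (−2.11 ± 0.28 and −3.14 ± 0.29, adjusted p = 2.31e-07 and 3.51e-11). Ctsh, cathepsin H, had log2 fold changes of −1.5 ± 0.19 and −3.48 ± 0.21 (adjusted p = 1.32e-07 and 7.34e-16), and its change differed between the regions by −1.98 ± 0.27 (adjusted p = 2.80e-05). Ctsc was the gene that rose (0.72 and 0.98), and Ctsd was −0.43 ± 0.23 in the duodenum (adjusted p = 0.228).

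Of 10 regulators linked to the suckling programme or to intestinal identity, 1 rose and 3 fell in the duodenum and 2 rose and 3 fell in the ileum. The share called over all tested genes was 18.3% and 26.8%. Prdm1, the repressor known to hold back the adult programme in suckling enterocytes, was 109, 83.7 and 90.6 CPM at week 2, then 10.96, 11.7 and 9.12 CPM at week 3 in the duodenum (−3.16 ± 0.23, adjusted p = 2.38e-13). In the ileum Prdm1 was 157, 144 and 150 CPM and then 13.0, 13.3 and 11.5 CPM (−3.57 ± 0.24, adjusted p = 9.94e-15). Maf was −0.36 ± 0.20 and 0.35 ± 0.20 (adjusted p = 0.231 and 0.200), and Tfeb, a regulator of lysosomal genes, fell (−1.12 and −1.29). Hnf4g rose by 1.27 ± 0.23 and 1.70 ± 0.24 (adjusted p = 7.35e-05 and 4.07e-07), and Nr3c1, the glucocorticoid receptor, rose in the ileum (0.53 ± 0.19, adjusted p = 0.0336). Cltc, Itsn1, Ctsc, Ctsd, Stx12, Rilp, Tfeb and Nr3c1 were named after their values were seen, to complete small counts.

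**Figure D5:**
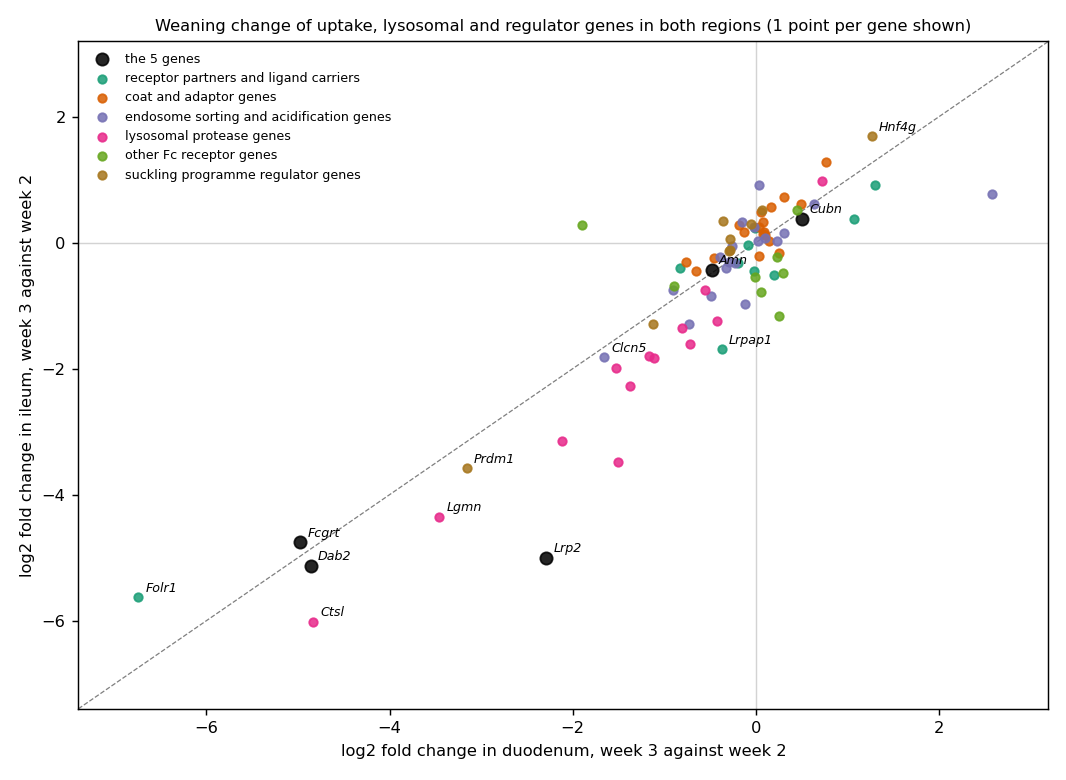
Log2 fold change from week 2 to week 3 in the duodenum (x) and in the ileum (y) for the 5 genes and for genes of 6 related lists, 1 point per gene shown, with the line of equal change dashed. Fcgrt and Dab2 lie near that line with Folr1 and Ctsl among the deepest falls, Lrp2 lies under it at −2.29 and −5.0, and Cubn and Amn sit between −0.48 and 0.51.

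The genes whose 16 group means of log2 CPM followed each gene most closely (mean log2 CPM 1 or higher) differed from gene to gene. For Cubn they were Flvcr2, a transporter of choline and haem (r = 0.958), Slc5a6, the sodium-dependent vitamin transporter for biotin and pantothenate (0.945), and Usp32 (0.945). Flvcr2 shared the early dip in the duodenum, with 36.5 ± 8.39 CPM at day 0, 7.04 ± 0.145 CPM at day 8 and 22.4 ± 5.12 CPM at week 3 (SD, n = 3). For Amn they were Nudt22 (0.973), Cgn, a tight junction protein (0.947), and Slc26a11 (0.944). For Dab2 they were Rgl1 (0.985), the growth factor gene Bmp7 (0.985) and Renbp (0.981), and Rgl1 went from 37.4 ± 7.83 CPM at week 2 to 4.82 ± 2.58 at week 3 and 0.798 ± 0.277 at week 4 in the duodenum (SD, n = 3). For Lrp2 they were Gpr137b (0.973), Pfn2 (0.969) and Ttc28 (0.967). For Fcgrt they were Aifm3 (0.983), the pseudogene Zfp133-ps (0.978) and Ninj1 (0.976). No gene was on the list of more than 1 of the 5.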

How the data were processed

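RNA levels were measured by RNA sequencing in 48 samples, 3 for each of 2 regions at 8 ages. The authors deposited estimated counts per gene, read in through tximport and already whole numbers. The deposited normalized signal tables divide those counts by 1 factor per sample (40 of 40 columns, within 1e-06) and served for gene symbols (51106 IDs) and this check. The submitters' processing notes name STAR 2.6.1d, Salmon 0.14.2, DESeq2 1.30.1 and mm10, with no role stated for each.

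The day 6 samples numbered 3 were left out and 46 samples fitted together in edgeR 4.0.16 (R 4.3.3), with TMM scaling, filterByExpr over 16 groups, the quasi-likelihood test and Benjamini-Hochberg adjustment over 21986 genes. Totals of 16824021 to 65042327 set the precision. CPM uses the TMM library size, log2 CPM a prior count of 2, and SE is the log2 fold change over the root of F. DESeq2 1.42.0, other scalings, filters and samples, and leaving out each sample were alternatives. In simulated data with 200 changed genes, 38% of 2-fold and 66% of 4-fold changes were recovered for week 3 against week 2 in the duodenum. For the regional difference in that step, 9% of 2-fold and 50% of 4-fold changes were recovered. Named genes were the 5, then the 3 called genes with the largest change at weaning in each list and region, B2m, Lrpap1, Cblif, Prdm1 and Maf, and the 3 genes most like each of the 5. The 5 genes and the lists were chosen with earlier results of these data known. Some genes within the list counts are not reported here.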

Additional observations from a re-analysis of the deposited data

Results flagged for a closer look

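The course over ages differed between duodenum and ileum for 3 of the 5 genes, where 22.4% of all tested genes were called. The test of this difference, edgeR's quasi-likelihood test of region by age, gave an adjusted p of 5.47e-06 for Lrp2, 0.0150 for Cubn and 0.0282 for Amn. The change from day 0 to day 8 also differed between the regions for 2 genes: by 5.57 on the log2 scale for Lrp2, which fell in the duodenum and differed by −0.11 in the ileum, and by 1.32 for Cubn, which fell in both regions and less in the ileum. Over all tested genes, 10.1% were called for that difference. The Cubn difference was lost in 10 of 12 fits that left out 1 sample. Over the 5 genes, the region by age test called 0 with all 48 samples, where 947 of 20901 genes tested were called. It called 1 to 5 when 1 sample was left out, and the number over all genes is not given for those fits.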

How the results depend on the processing

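The weaning falls of Dab2 and Fcgrt in both regions and of Lrp2 in the ileum were called in each fit run. Values below are the number of the 5 genes called, except where all genes tested are named. With all 48 samples it was 1 for duodenum week 4 against week 3, 0, 2, 0 and 1 for the regions at day 0, day 2, day 6 and week 3, 1 for the regional difference in the day 8 change, 0 for the ileum at day 2, at day 8 and from day 8 to week 2, 3 for ileum week 4 against day 0 and 0 for the interaction. Of all 20901 genes tested then, those called numbered 1866, 578, 1024, 0, 1376, 348, 541, 3156, 417, 8164 and 947, in the same order. With only the groups compared it was 3 for duodenum day 2, 5 for duodenum weaning, 4 for ileum week 2 against day 8 and 2 for the regions at day 4. Among the 5 at duodenum weaning, Cubn was higher and the other genes were lower. Over all genes tested, 3607 of 17979, 5063 of 17140, 3472 of 17835 and 354 of 17738 were called in these fits. With no filter on low counts it was 0 for the regions at day 0 and 1 for the day 8 change, with 894 and 1207 of all 38855 genes tested called. Without day 4 samples it was 2 for the regions at day 0, 1 for the weaning change, 2 for ileum day 8, 3 for ileum week 2 against day 8 and 5 for the interaction. Of all 21617 genes tested then, 2419, 672, 5865, 3037 and 9512 were called. DESeq2 gave 1 for the weaning change, 2 for ileum day 8 and 5 for the interaction, and RLE size factors gave 2 for ileum day 8. Over all genes tested, DESeq2 called 577 of 17293, 4786 of 21124 and 6958 of 21124, and the RLE fit 4279 of 21986. The cause of these differences was not tested. Leaving out 1 sample gave 0 to 1 for the regions at day 0, 2 to 3 at day 2 and 1 to 3 at week 4. It gave 1 to 2 for the day 8 change, 0 to 1 for the weaning change and 1 to 5 for the interaction. For the ileum it gave 0 to 1 at day 2, 0 to 2 at day 8 and 0 to 1 for week 2 against day 8. The number called over all genes is not given for these fits. The ranges therefore cannot tell a move of the 5 genes from a move of all genes.

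Signs turned only for values that did not pass the test. On the log2 scale, leaving out 1 sample gave, for Amn, −0.41 to 0.16 (duodenum day 2), −0.56 to 0.086 (duodenum week 4 against day 0), −0.083 to 0.54 (regions at week 4), −0.058 to 0.66 (day 8 change), −0.11 to 0.19 (weaning change) and −0.52 to 0.061 (ileum day 2). For Fcgrt it gave −0.032 to 0.42 and −0.25 to 0.23 (week 4 against week 3 in duodenum and ileum), −0.48 to 0.052 (regions at day 4), −0.11 to 0.17 (day 8 change) and −0.12 to 0.53 (weaning change). For Lrp2 it gave −0.43 to 1.76 (regions at week 3), −0.32 to 0.015 (ileum day 8) and −1.15 to 0.88 (ileum week 4 against week 3), and for the weaning change −0.21 to 0.0052 for Cubn and −0.70 to 0.18 for Dab2. The Amn weaning change was −0.014 with no filter and −0.056 without day 4 samples, and Fcgrt in the ileum from week 3 to week 4 was −0.011 without mitochondrial transcripts.

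Replicate blocks by sample number gave other counts. For comparisons between regions the block was the sample number within each age, which pairs the regions. For comparisons between ages it was the sample number within each region. With the block within age, 2 genes were called for the regions at day 0, 1 for the weaning change and 5 for the interaction. Of all 21986 genes tested, 1484, 341 and 4843 were called in these. The blocks lost no call among the 5 genes and added 8, all in comparisons between regions. By edgeR these were Dab2 at day 2 (adjusted p = 0.00399) and week 2 (0.0115), in the day 8 change (0.0125) and in the interaction (0.00149). The others were Fcgrt at day 0 (0.0446) and in the interaction (0.0199), and Lrp2 at week 4 (0.0197) and in the weaning change (0.00172). Same-numbered samples of the regions correlated at −0.36 to 0.67 (16 of 23 pairs over 0.1), and 17 of 23 duodenum samples correlated best with their own number. The numbers were not taken as pairs in the main fit.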
